A study of Homo sapiens with 6 samples.

Results

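Autophagy is the pathway by which a cell encloses its own proteins and organelles in a double membrane and delivers them to the lysosome. A kinase complex around ULK1 starts the process, and a lipid kinase complex around BECN1 marks the membrane. Lipid transfer proteins let it grow, conjugation enzymes attach LC3 and GABARAP proteins to it, and receptors such as SQSTM1 tie the cargo to those proteins. Plasma cells and myeloma cells, which make large amounts of antibody, are known to rely on this pathway for their survival. The 42 genes described here are its core machinery and receptors, taken by gene symbol out of 57820 genes in the tables. All 42 were found and all passed the expression filter, among 17679 genes tested.

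RNA was measured in U266, an established human multiple myeloma line, in 3 MYC samples and 3 control samples. The MYC cells were made by transduction with a lentivirus in which the EF1A promoter drives MYC, and both groups were grown in the same serum-containing medium. What the control cells carry is not given in the sources used here, so transduction and MYC cannot be told apart. Nothing says that the samples came from separate cultures or clones, so the p-values measure only the spread between these samples, which may be technical.

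MYC itself stood at 105, 110.3 and 92.1 CPM (counts scaled to a common library total, with TMM factors) in the MYC libraries, against 3.91, 4.16 and 4.51 CPM in the control libraries, with vector and endogenous reads not told apart. Library totals ran from 27139978 to 158667309 expected counts, a 5.85-fold range, with the lowest in MYC replicate 1. All 9 plasma cell markers were measured, with a summed TPM (the deposited length-scaled level) of 3430.3 to 3488 in MYC libraries and 3701 to 4221 in control libraries, and 2 of them rose and 5 fell. Sums over 4 markers each were 0.520 to 0.950 TPM in MYC and 0.320 to 0.470 TPM in control libraries for B cells. They were 1.01 to 1.59 TPM in MYC and 1.61 to 2.30 TPM in control libraries for myeloid cells, and 1.98 to 2.36 TPM in MYC and 2.88 to 3.37 TPM in control libraries for stromal cells. Those for T and NK cells were 11.9 to 13.4 TPM in MYC and 5.15 to 6.93 TPM in control libraries, and for epithelial cells 7.59 to 8.69 TPM in MYC and 4.0 to 4.78 TPM in control libraries. Of these other markers PAX5, GNLY, CD3E, DCN and KRT18 rose and CD8A, CSF1R and COL1A1 fell, with GNLY up 26.1-fold to 3.17 TPM in MYC against 0.107 TPM in control cells. With the GC offset explained below, DCN, CD8A and CSF1R were not called and ITGAM was called higher. Of the plasma cell markers, JCHAIN then lost its call as higher, while MZB1 was called higher and SLAMF7 lower. MS4A1 and COL1A2 stayed under 0.1 TPM in every library. The part of such markers in the results was not tested.

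Of the 42 autophagy genes, 11 rose and 20 fell in MYC cells and 11 did not pass the test (edgeR quasi-likelihood, adjusted p under 0.05 over all genes tested). The called share was 73.8%, and 60.8% of all genes tested were called. The falling share was 47.6% of the autophagy genes, against 32.1% of all genes, and the rising share was 26.2% against 28.8%. Past a 1.5-fold change 10 of the 42 members fell, a share near the 21.8% of all genes, and 1 rose, a share below the 11.4% of all genes. Past a 2-fold change 5 members fell, again a share near the 12.4% of all genes, and 1 rose, against 5.62% of all genes. The median log2 fold change of MYC over control was -0.11 over the members and -0.02 over all genes tested. In bulk RNA, fewer cells that express a gene and less of its RNA per cell cannot be told apart. All levels are relative to the other RNA of the same library. A change in total RNA per cell was not measured, so a rise or fall here is one in relative level.

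Fold changes in these libraries followed the GC content of the transcripts, so member fold changes are also given with a GC offset, which takes out each library's smooth trend on GC content. After the offset 7 members were called higher and 22 lower. The background was then 29.7% of all genes higher and 28.8% lower, 58.5% in all. Past a 1.5-fold change after the offset, 4 members were lower and 1 higher, smaller shares than the 11.2% and 11.3% of all genes. Past a 2-fold change, 1 was higher and 1 lower (ULK2 and ULK1), against 6.47% and 4.68% of all genes. The split of calls moved with it: increases made up 11 of 31 calls before the offset and 7 of 29 calls after it. Before and after it, 6 members were higher and 17 were lower in both, and ATG16L2 was called in opposite directions. The median over the members was -0.14 with the offset, against -0.01 over all genes.

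**Figure D1:**
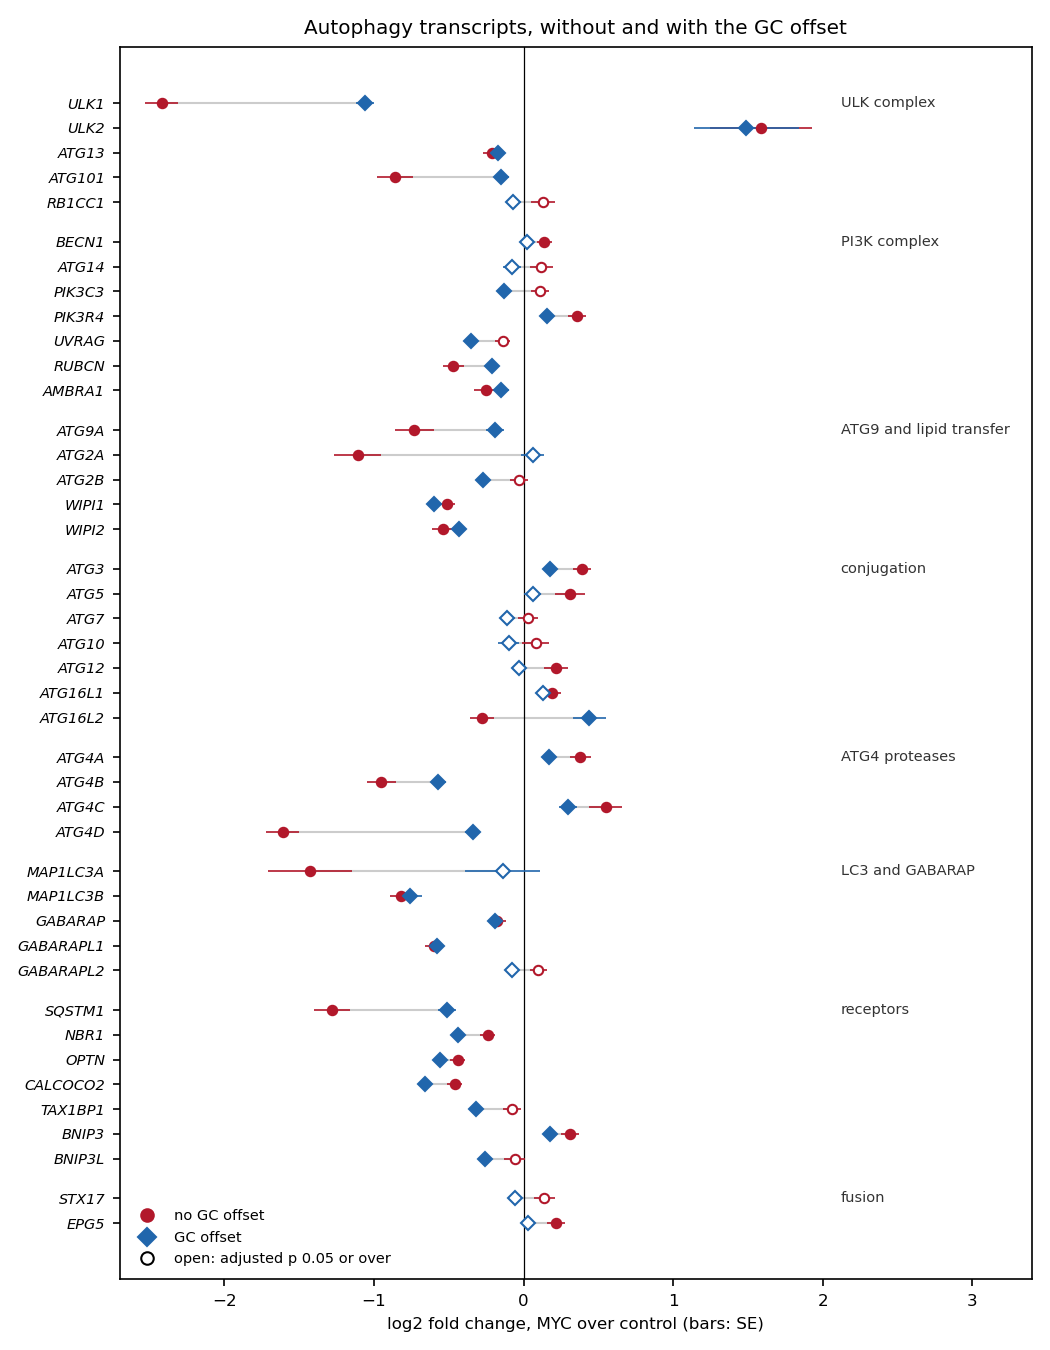
Log2 fold change of MYC over control (x axis, bars are the SE) for the 42 autophagy genes by functional group, without the GC offset (circles) and with it (diamonds), open where the adjusted p was 0.05 or over. ULK1 is farthest left at -2.42 and moves to -1.06, while the receptors SQSTM1, NBR1, OPTN and CALCOCO2 stay below 0 both ways.

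MYC and the lysosomal regulator TFEB both bind the E-box CACGTG, so the 250 bases before each member's start were searched for it (a palindrome, hence the same on both strands), and for its form with a flanking T, TCACGTG or CACGTGA on the other strand, which overlaps it. The RefSeq table held 44 promoters of 35 members, and 3 of these promoters (6.8%) held the E-box and 2 (4.5%) the longer form, each in a different gene. They were found in 6.3% and 3.3% of all 35116 promoters listed, and in 8.2% and 4.8% of those of tested genes. The members with an E-box were ATG14, ATG3 and BNIP3. Counted once per gene, these were 2 of 10 rising, 0 of 18 falling and 1 of 7 uncalled genes. The split by direction was not counted over all genes, so a link between the E-box and direction was not tested. The 2 called members with an E-box are shown, 5′ to 3′ on the minus strand of GRCh38.p14, with the E-box in capitals. For ATG3 the site lies 18 bases before the start (chr3:112561963-112561992), and for BNIP3 134 bases before it (chr10:131982014-131982173).
ATG3: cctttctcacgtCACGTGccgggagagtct
BNIP3: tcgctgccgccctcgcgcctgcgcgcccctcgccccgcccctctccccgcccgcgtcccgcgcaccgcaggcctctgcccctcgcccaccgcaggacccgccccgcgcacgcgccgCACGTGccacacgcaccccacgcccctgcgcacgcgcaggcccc
These matches describe the letters of the reference and not binding in these cells.

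In the initiation complex the main kinase gene fell most. ULK1 (ENSG00000177169.5), the kinase that receives the signals from mTORC1 and AMPK, had 12.7, 11.6 and 9.32 CPM in MYC libraries, against 62.1, 60.6 and 56.1 CPM in control libraries. The groups were far apart, and ULK1 was 5.34-fold lower (log2 fold change -2.42 ± 0.11 SE, adjusted p = 1.51e-06, edgeR). The fall was 2.08-fold after the GC offset, and ULK1 was called lower in all 18 alternative settings. Its paralog ULK2 stood at 0.227, 0.199 and 0.202 CPM in MYC libraries, against 0.0360, 0.0776 and 0.0756 CPM in control libraries. ULK2 was called higher (log2 fold change 1.59 ± 0.34, adjusted p = 0.00390, edgeR), but its deposited level of 0.180 ± 0.050 TPM in MYC cells (SD, n = 3) is far below the 3.18 ± 0.271 TPM of ULK1 there.

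The partners of the kinase moved less. ATG101, which stabilises ATG13 in the complex, had 27.7, 23.8 and 18.8 CPM in MYC libraries and 41.9, 44.0 and 41.0 CPM in control libraries. The groups did not overlap. ATG101 fell by 0.86 ± 0.12 on the log2 scale (adjusted p = 4.01e-04, edgeR), and its value after the GC offset was -0.15, still called. ATG13, the adaptor subunit, fell by 0.21 on the log2 scale (adjusted p = 0.0120, edgeR), with -0.17 after the offset. RB1CC1, which encodes the scaffold FIP200, was not called, at 0.13 ± 0.08, or -0.07 after the offset.

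Genes of the BECN1 lipid kinase complex moved little and both ways: of 7, 2 rose, 2 fell and 3 were not called. After the GC offset 1 was higher and 4 lower. Of all genes tested 28.8% rose and 32.1% fell, or 29.7% and 28.8% after the offset. PIK3R4, the regulatory subunit of the lipid kinase, rose to 54.3 CPM in MYC cells, against 42.2 CPM in control cells (log2 fold change 0.36 ± 0.06, adjusted p = 8.05e-04, edgeR; 0.16 after the offset). RUBCN, which encodes Rubicon, an inhibitor of autophagosome maturation, fell (-0.47 ± 0.07, and -0.21 after the offset). Both kept their calls in all 18 alternatives. AMBRA1, a scaffold that links BECN1 to its regulators, was called lower at -0.25 (-0.15 after the offset), and that call was lost on both TPM scales, under the effective length offset, and when control 2, control 3 or MYC 2 was left out. BECN1 itself was called higher at 0.14 ± 0.05 (adjusted p = 0.0480, edgeR), but that call held in only 4 of 18 alternatives. It ended when any library other than MYC 1 was left out, and the value was 0.02 with the GC offset. The catalytic subunit gene PIK3C3 and the autophagy-specific subunit gene ATG14 stood at 0.11 and 0.12 and were not called. Both values turned to the other side of 0 with the GC offset, where PIK3C3 was called lower at -0.13. UVRAG, the alternative partner of BECN1, was not called at -0.14 (adjusted p = 0.0501, edgeR) and was called lower at -0.35 with the offset.

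Of 5 genes for membrane supply and growth, 4 fell, and after the GC offset 4 were lower. Of all genes tested 32.1% fell, and 28.8% were lower after the offset. WIPI1 and WIPI2 encode proteins that read the lipid made by this kinase complex and bring in the conjugation machinery. WIPI1 had 106 CPM in MYC cells and 151 CPM in control cells on average (log2 fold change -0.51 ± 0.05), and WIPI2 87.5 CPM in MYC and 127 CPM in control cells (-0.54 ± 0.07). Both were lower in every alternative, with -0.60 for WIPI1 and -0.43 for WIPI2 after the GC offset. ATG9A encodes the membrane protein whose vesicles seed the autophagosome, and had 30.7, 28.2 and 20.9 CPM in MYC libraries against 41.5, 46.7 and 43.4 CPM in control libraries. ATG2A, which encodes a lipid channel protein, had 10.1, 9.50 and 6.25 CPM in MYC libraries and 18.3, 20.2 and 17 CPM in control libraries. Both sets of libraries lay apart, with log2 fold changes of -0.73 ± 0.13 and -1.11 ± 0.16. For ATG9A the value was -0.19 after the GC offset, still called, and its call was lost on both TPM scales and under the length offset. The value for ATG2A was 0.06 with the GC offset and no longer called, so no direction is given for it. Its paralog ATG2B was not called at -0.03, and was called lower at -0.27 with the offset.

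Among 7 genes for conjugation enzymes and their partners, 4 rose, 1 fell and 2 were not called, and after the GC offset 2 were higher and 0 lower. Of all genes tested 28.8% rose and 32.1% fell, or 29.7% and 28.8% after the offset. ATG3, the enzyme that passes LC3 on to its lipid, averaged 85.8 CPM in MYC cells, against 65.7 CPM in control cells (0.39 ± 0.06, adjusted p = 5.19e-04, edgeR; 0.18 after the offset). ATG3 was called higher in all 18 alternatives. ATG5, ATG12 and ATG16L1, whose products form the complex that sets the site of conjugation, were called higher at 0.31, 0.22 and 0.19. None of these 3 was called with the GC offset, where the values were 0.06, -0.03 and 0.13. The calls of all 3 also ended without control 2, control 3 or MYC 2, those of ATG12 and ATG16L1 without MYC 3, and that of ATG16L1 without control 1. On both TPM scales none of the 3 was called. The calls of ATG5, ATG12 and ATG16L1 held in 11, 7 and 6 of 18 alternatives. The E1-like enzyme gene ATG7 and the E2-like enzyme gene ATG10 stood at 0.03 and 0.08 without a call, and at -0.11 and -0.10 with the offset. ATG16L2, a paralog of ATG16L1, was called lower at -0.28 and higher at 0.44 with the offset, so no direction is given. Its first call also ended on both TPM scales, under the effective length offset, and without control 2, control 3 or MYC 2.

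The 4 proteases that trim LC3 and GABARAP proteins and release them from membranes split in pairs. ATG4D had 8.09, 7.25 and 6.0 CPM in MYC libraries, against 21.3, 22.3 and 21.2 CPM in control libraries. ATG4D fell 3.06-fold (-1.61 ± 0.11, adjusted p = 8.99e-06, edgeR), or 1.27-fold after the GC offset. ATG4B, the most active of the proteases, had 36.7, 31.0 and 27.5 CPM in MYC libraries and 59.7, 62.9 and 60.9 CPM in control libraries (-0.95 ± 0.10, and -0.57 with the offset). ATG4A and ATG4C went the other way, at 0.38 ± 0.07 and 0.55 ± 0.11, and stayed called with the offset at 0.17 and 0.30. In each of the 4 genes the libraries of the groups did not overlap, as in 67.1% of all genes tested.

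Among the LC3 and GABARAP genes, which encode the small proteins attached to the autophagosome, 4 of 5 fell and 0 rose. After the GC offset 3 of the 5 were lower and 0 higher. Of all genes tested 32.1% fell, and 28.8% were lower after the offset. MAP1LC3B, the usual marker of autophagosomes, had 131, 133 and 141 CPM in MYC libraries, against 257, 224 and 236 CPM in control libraries. Every MYC library lay far below every control library, 1.77-fold lower on average (-0.82 ± 0.07, adjusted p = 2.23e-05, edgeR), and the value with the GC offset was nearly as large at -0.76. GABARAPL1, of the GABARAP branch, had 24.5, 24.2 and 25.5 CPM in MYC libraries and 36.6, 37.6 and 38.2 CPM in control libraries (-0.60 ± 0.06, and -0.58 with the offset). GABARAP had 96.9, 90.3 and 93.8 CPM in MYC libraries, against 108, 109.5 and 101 CPM in control libraries. The groups lay close together (-0.18 ± 0.06, and -0.19 after the offset), and the call ended under the replicate block, without an expression filter, and when control 2 or MYC 2 was left out. GABARAPL2 had 74.4, 74.2 and 75.4 CPM in MYC libraries and 73.8, 68.5 and 66.2 CPM in control libraries. Its lowest MYC library lay just above the highest control, and it was not called (0.10 ± 0.06, adjusted p = 0.153, edgeR; -0.08 after the offset). MAP1LC3A was scarce, with 0.492, 0.289 and 0.202 CPM in MYC libraries and 0.936, 0.841 and 0.673 CPM in control libraries, and its call (-1.43 ± 0.28) ended with the offset at -0.14. On the length-scaled TPM, GABARAP was the most abundant of the family at 229.5 ± 15.6 in MYC and 278 ± 12.4 in control cells (SD, n = 3 each), followed in MYC cells by GABARAPL2 and then MAP1LC3B. In control cells MAP1LC3B and GABARAPL2 came next with overlapping libraries, and MAP1LC3A was lowest in both groups.

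**Figure D2:**
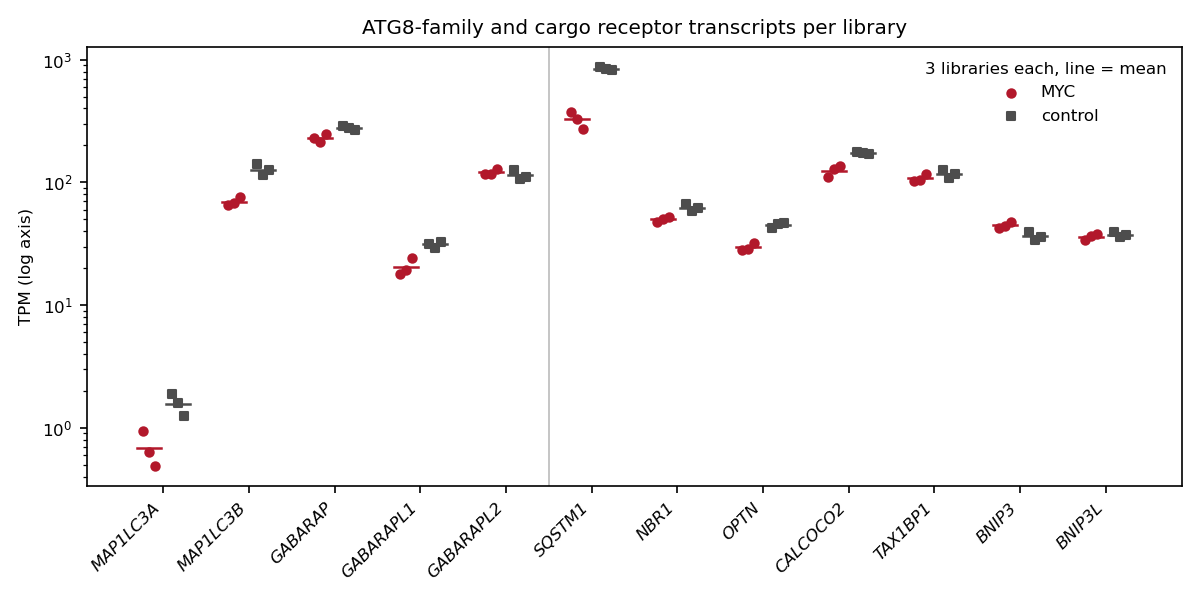
Deposited TPM (log axis) of the LC3 and GABARAP genes, left of the grey line, and of the cargo receptors, right of it, with 1 point per library and a line at the mean of 3 MYC and 3 control libraries. SQSTM1 stands at 272 to 376 TPM in MYC libraries and 824 to 872 TPM in control libraries, and MAP1LC3B at 64.9 to 76.4 TPM in MYC and 114 to 141 TPM in control libraries.

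Of the 7 cargo receptors 4 fell and BNIP3 rose, where 32.1% of all genes tested fell and 28.8% rose. SQSTM1, or p62, binds ubiquitinated cargo and is itself degraded by autophagy as a protein. It had 579, 500.1 and 398 CPM in MYC libraries, against 1198, 1231 and 1158 CPM in control libraries. No MYC library came near a control. SQSTM1 fell 2.43-fold (-1.28 ± 0.12, adjusted p = 5.25e-05, edgeR), or 1.42-fold after the GC offset. CALCOCO2, or NDP52, a receptor for bacteria and damaged mitochondria, had 154, 163 and 159 CPM in MYC libraries and 228, 215 and 212 CPM in control libraries. OPTN, or optineurin, which serves mitophagy, had 62.0, 59.9 and 61.0 CPM in MYC libraries and 79.4, 84.4 and 85.0 CPM in control libraries. Both lay apart between the groups, with log2 fold changes of -0.46 ± 0.05 and -0.44 ± 0.05, and stood at -0.66 and -0.56 after the offset. NBR1, a receptor related to SQSTM1, had 167, 174 and 173 CPM in MYC libraries, against 210.0, 200.2 and 199 CPM in control libraries (-0.24 ± 0.05, and -0.44 with the offset). SQSTM1, NBR1, OPTN and CALCOCO2 were called lower in all 18 alternatives.

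With the GC offset 6 of the 7 receptors were lower and BNIP3 was higher, where 28.8% of all genes were lower and 29.7% higher. TAX1BP1, which resembles CALCOCO2, had 193, 199 and 207 CPM in MYC libraries and 221, 201 and 210.4 CPM in control libraries. The groups overlapped, and it was not called at -0.08 but was called lower at -0.32 with the offset. BNIP3L, or NIX, an outer mitochondrial membrane receptor, had 52.7, 52.1 and 53.8 CPM in MYC libraries and 59.4, 51.6 and 54.1 CPM in control libraries. It was not called at -0.06 and was called lower at -0.26 with the offset. BNIP3, the hypoxia-induced relative of BNIP3L, had 33.1, 33.6 and 33.4 CPM in MYC libraries, against 28.2, 26.3 and 26.2 CPM in control libraries. All MYC libraries lay above the controls. BNIP3 rose by 0.31 ± 0.06 on the log2 scale (adjusted p = 0.00193, edgeR), or 0.18 after the offset. GENCODE 29 names 39 pseudogenes after BNIP3. In all 7 members have a named pseudogene, among them SQSTM1 with SQSTM1P1 and MAP1LC3B with MAP1LC3BP1, so reads could be split with copies.

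Of the fusion genes, STX17, the syntaxin of the autophagosome membrane, was not called at 0.14 ± 0.07, and -0.06 with the offset. EPG5, a tether between autophagosome and lysosome, was called higher at 0.22 ± 0.06, and the value was 0.03 and not called with the offset. The EPG5 call also ended without an expression filter or when MYC 2 was left out.

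**Figure D3:**
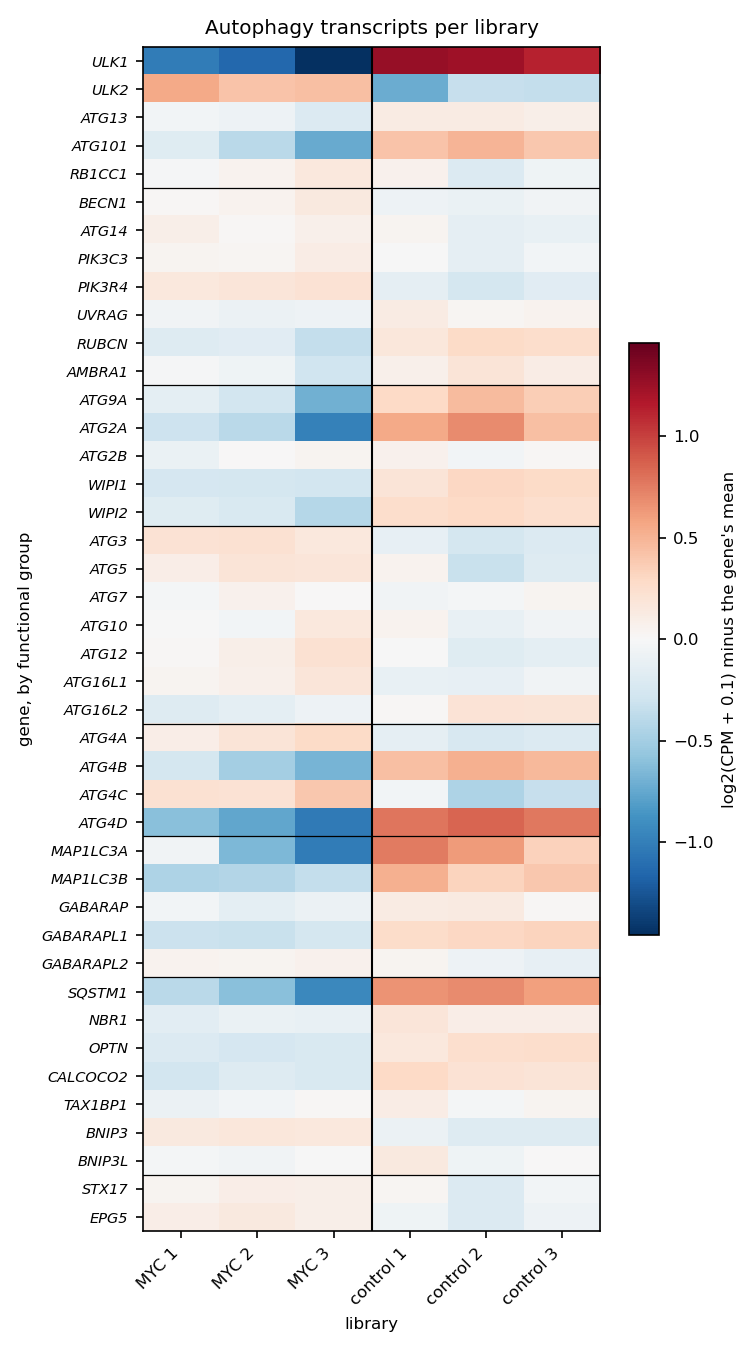
Log2(CPM + 0.1) of each autophagy gene minus its mean over the 6 libraries, with MYC libraries left of the black line and control libraries right of it, and rows grouped by function. ULK1, ATG4D and SQSTM1 show the widest gaps between the groups, and several of the falling genes are lowest in MYC replicate 3.

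Fold changes of the members followed GC content. The 20 falling members had a median transcript GC content of 54.5% (range 45.6 to 64.5%), against 43.8% (36.7 to 50.2%) for the 11 rising and 44.5% (40.3 to 47.9%) for the uncalled members. The 10 members with a GC content of 54% or over had a median log2 fold change of -1.03, where all genes in that range had -0.65. All 10 were called lower before the offset, but after it ATG2A and MAP1LC3A were not called and ATG16L2 was called higher. Of the 6 members under 42% GC, 3 rose and 0 fell before the offset, with a median of 0.17 against 0.25 for all genes there. After it ATG4C was called higher and PIK3C3, ATG2B and TAX1BP1 lower. Calls among all genes were not counted by GC range. Across the 42 members Spearman's rho between GC content and fold change was -0.79, and -0.56 across 17202 genes, as a description, since genes share the same libraries. With the offset, rho was -0.34 for the members and -0.01 for all genes, and members of 54% GC or over had a median of -0.20 where all genes had 0.00. Library differences followed the same order: MYC replicate 3 was the lowest MYC library in 9 of the 10 members of 54% GC or over, and in 6 of the other 32. The median log2 ratio to the control mean in those 10 was -0.73, -0.97 and -1.37 in MYC replicates 1, 2 and 3. Beyond the offset, the part of base composition in these changes was not tested.

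**Figure D4:**
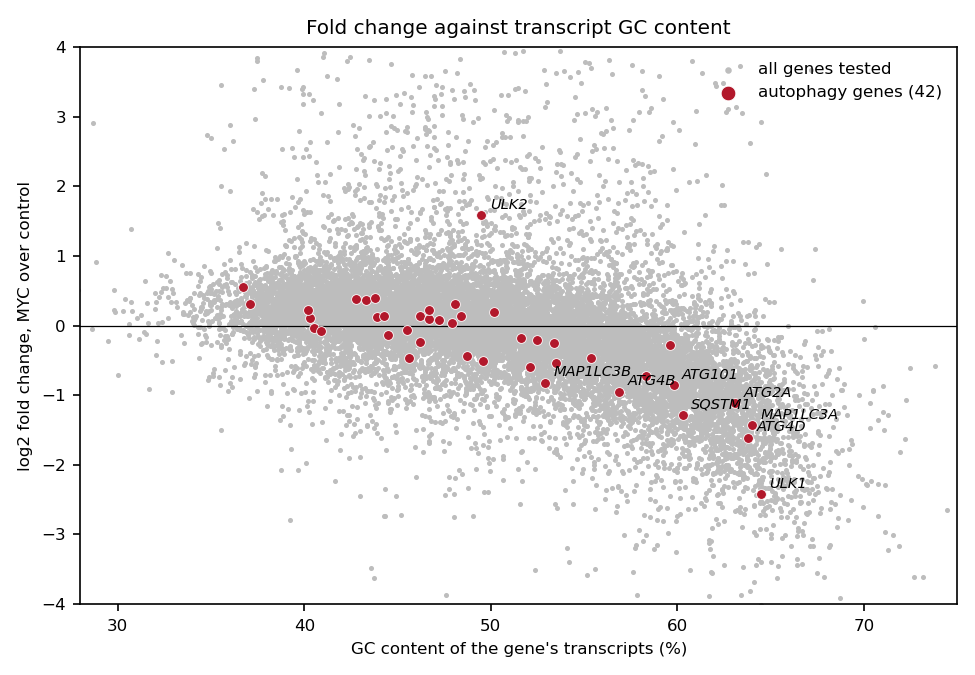
Log2 fold change of MYC over control against the mean GC content of the gene's transcripts (%), for all genes tested (grey) and the 42 autophagy genes (red), with members beyond 0.8 on the log2 scale named. Of 17202 genes with a GC value 162 lie outside the axes, and ULK1, ATG4D, MAP1LC3A and ATG2A lie at the GC-rich end.

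Effective length is the value RSEM gives as a mean over a gene's transcripts weighted by their estimated abundance. Its libraries did not overlap between the groups in 16 members, or 38.1%, against 26.1% of all genes tested, and 3 of them had a mean at least 20% shorter or 25% longer in MYC cells. ATG4B had an effective length of 729, 740 and 641 bases in MYC libraries, against 1274, 1155 and 1166 bases in control libraries, a ratio of 0.59. ATG9A had 2224, 1801 and 1578 bases in MYC libraries and 2847, 2983 and 2942 bases in control libraries, a ratio of 0.64. Both were shorter in every MYC library. By a mean at least 20% shorter with no overlap, 3.79% of all genes tested were shorter. ATG13 was longer, with 3289, 3364 and 3241 bases in MYC libraries and 2609, 2513 and 2391 bases in control libraries (1.32-fold, where 1.53% of genes were at least 25% longer with no overlap). Among the smaller differences, AMBRA1 had a ratio of 0.89 and lost its call under the length offset, and ATG7 had a ratio of 0.83 and was called higher under it (0.29). ATG4B stood at 56.7 ± 4.39 TPM in MYC and 66.6 ± 3.32 TPM in control cells, and was called lower on both TPM scales (-0.23, limma) but not with the effective length offset (-0.21). ATG9A stood at 17.9 ± 1.41 TPM in MYC and 19.5 ± 0.230 TPM in control cells, with overlap, and was not called on log2(TPM + 1) (-0.12, limma) or with the length offset (-0.09). In TPM ATG13 fell to 49.4 ± 0.514 TPM in MYC cells against 78.1 ± 2.63 TPM in control cells (-0.65 on log2(TPM + 1), limma; SD, n = 3 each throughout).

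**Figure D5:**
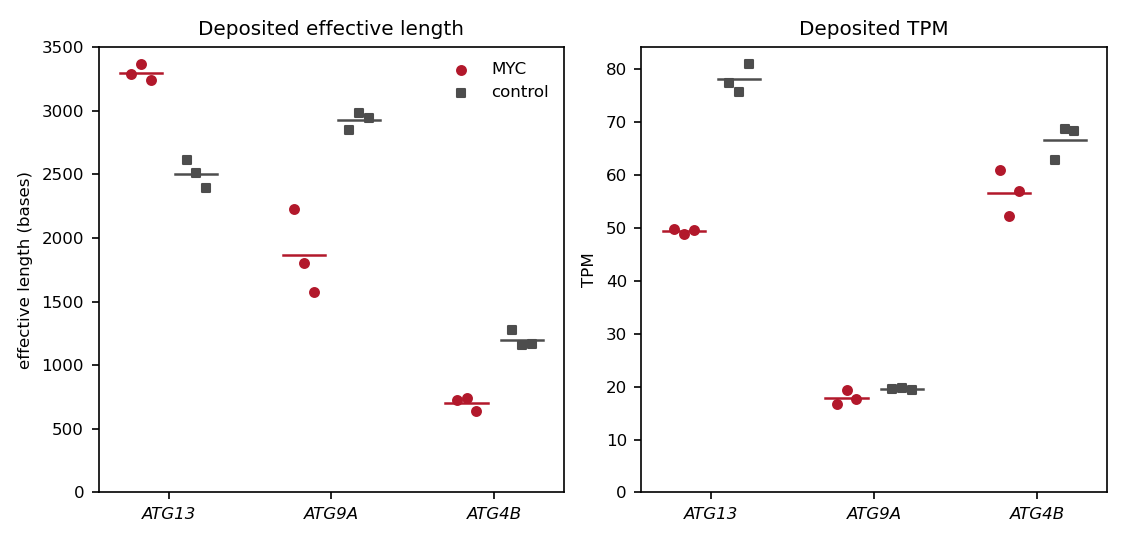
Deposited effective length in bases (left) and deposited TPM (right) of ATG13, ATG9A and ATG4B, 1 point per library with a line at the mean of 3 MYC and 3 control libraries. ATG9A and ATG4B are shorter in all MYC libraries and ATG13 is longer, and the TPM of ATG13 falls to 49.4 in MYC against 78.1 in control cells.

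Other genes of the pathway were read from a wider list of 65 symbols, of which 61 were tested: 12 rose, 29 fell and 20 were not called. The falling share was 47.5%, against 32.1% of all genes, and the rising share was 19.7% against 28.8%. After the GC offset 12 were higher (19.7%) and 30 lower (49.2%), against 29.7% and 28.8% of all genes. Among regulators 3 of 13 rose and 6 fell, and after the offset 2 were higher and 6 lower. TFE3, a lysosomal gene activator related to TFEB, had 67.2 ± 6.31 CPM in MYC and 106 ± 5.24 CPM in control cells (-0.66 ± 0.08, and -0.21 with the offset). FOXO4, a forkhead factor, fell at -0.65 but was not called with the offset (-0.14), and the AMPK catalytic subunit gene PRKAA1 rose at 0.55 ± 0.07 (0.32 with the offset). TFEB, named after its values were seen, had 6.07 ± 1.65 CPM in MYC and 13.9 ± 0.447 CPM in control cells (-1.22 ± 0.16), and was not called with the offset at -0.10.

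Of 14 membrane factors 3 rose and 8 fell, and after the offset 2 were higher and 6 lower. Of all genes tested 28.8% rose and 32.1% fell, or 29.7% and 28.8% after the offset. WDR45, of the WIPI family, was at -0.99 ± 0.09 and the phosphoinositide-binding ZFYVE1 at -0.68 ± 0.07, with -0.53 and -0.54 after the offset. TP53INP2 was called lower at -0.96, and its value turned to 0.14, not called, with the offset. Among 14 fusion and tethering genes 3 rose and 6 fell, and after the offset 3 were higher and 9 lower. RUBCNL, or Pacer, which promotes autophagosome maturation where RUBCN inhibits it, rose 6.97-fold, with 20.0, 20.2 and 21.4 CPM in MYC libraries against 2.90, 2.79 and 3.11 CPM in control libraries (adjusted p = 2.36e-07, edgeR). After the offset the rise was 6.09-fold, and in the wider list no other gene rose as much in either fit. PLEKHM1 and TECPR1, adaptors of autophagosome and lysosome, fell at -1.04 and -1.30, and at -0.54 and -0.27 with the offset.

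In selective autophagy 3 of 20 tested genes rose and 9 fell, and after the offset 5 were higher and 9 lower. The shares over all genes were 28.8% and 32.1%, and 29.7% and 28.8% after the offset. RETREG1, or FAM134B, a receptor for the endoplasmic reticulum, rose 2.98-fold to 22.4 ± 1.42 CPM in MYC cells, against 7.53 ± 0.373 CPM in control cells (adjusted p = 2.53e-06, edgeR; 2.59-fold after the offset). TOLLIP, a ubiquitin-binding adaptor, and FKBP8, a mitophagy receptor, fell 3.18-fold and 4.14-fold, or 1.58-fold and 1.67-fold after the offset. MYC replicate 3 was again the lowest library for both, as for TFEB. MAP1LC3C and MAP1LC3B2 of the ATG8 family did not pass the expression filter.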

How the data were processed

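Poly-A RNA-seq libraries of U266 cells were compared. The kit, per the labels' protocols, keeps no strand. The submitters' processing notes list cutadapt, TopHat2 and GRCh37, and neither versions nor the annotation are given in the sources used here. The deposited tables are RSEM output, per the file headers. The authors gave for each gene and library an expected count (estimated, not always whole), a TPM (length- and depth-scaled) and an effective length in bases. Depth is given in the report, and 51996 identifiers had a symbol.

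After rounding the expected counts, the groups were compared in edgeR 4.0.16 (R 4.3.3) with its default filter on low counts, TMM scaling, no covariate and the quasi-likelihood F test. P-values were adjusted by Benjamini-Hochberg over all 17679 genes, and a call means an adjusted p under 0.05. The standard error (SE) follows from the F statistic. The procedure was tested on simulated data. There it missed many of the smaller changes, and its share of false calls was above the nominal level. The simulation changed a far smaller share of genes than the 60.8% called here, so its rates need not hold for these data. Small calls, and genes not called, are still to be read with caution. Members and lists were chosen with earlier results of these data known. Any member could be named. Every library's value is given for called members past 1.5-fold, LC3 and GABARAP genes and cargo receptors, and the wider list contributes up to 3 called genes per sub-list by smallest adjusted p.

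For the GC offset a loess curve (span 0.4) of log2 CPM on mean transcript GC content (GENCODE 29, joined on transcript identifiers) was subtracted in each library before TMM scaling. The other alternatives were RLE scaling, plain totals, DESeq2 1.42.0, limma-voom, limma-trend (limma 3.58.1) on log2(TPM + 1) or log2(TPM + 0.1), no low-count filter, a mean CPM minimum of 5, an offset for effective length, the replicate number as a block with or without the GC offset, and leaving out each library. Promoter windows were the 250 bases before each RefSeq start on GRCh38.p14, found for 35 members.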

Additional observations from a re-analysis of the deposited data

How the results depend on the processing

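Of the 42 members, 6 rising, 13 falling and 5 uncalled genes kept their call in all 18 alternatives that tested them. The count of rising members was 11, but 7 on log2(TPM + 1), on log2(TPM + 0.1), without an expression filter and with the GC offset. It ran from 6 to 11 when a library was left out, the lowest without MYC replicate 2 and 7 without control replicate 2 or 3. The count of falling members ran from 17 to 20 without a library, and for all genes called lower the count was 3695 with a mean CPM of at least 5, where fewer genes were tested (5671 in the fit reported). With the replicate block 8 members rose and 19 fell, and with the block and the GC offset 8 and 22. The deviations of equal-numbered samples correlated at -0.047, 0.078 and 0.11, and not every sample went best with its own number.

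Direction turned, on the log2 scale, with the GC offset (with the block and the offset in brackets) for RB1CC1 to -0.07 (-0.06), ATG14 to -0.08 (-0.08), PIK3C3 to -0.13 (-0.13), ATG2A to 0.06 (0.05), ATG7 to -0.11 (-0.11), ATG10 to -0.10 (-0.09), ATG12 to -0.03 (-0.03), ATG16L2 to 0.44 (0.44), GABARAPL2 to -0.08 (-0.08) and STX17 to -0.06 (-0.06). ATG2B turned to 0.01 without MYC replicate 1, and ATG7 to -0.01 without control replicate 1. The offset itself removes what follows GC content, and any other cause was not tested. Exons of 23 members overlap a gene on the other strand in GENCODE 29, and without strand such reads were not told apart. Exons of GABARAP and ATG9A also overlap a protein-coding gene on the same strand, so their reads could be shared with it. Low counts limit ULK2 and MAP1LC3A.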
